A study of Mus musculus with 8 samples.

Results

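Expression of 10 genes that carry the insulin and glucagon signals in liver cells was compared between primary hepatocytes of p16-/- mice and of their p16+/+ littermates. The genes were Insr, Irs1, Irs2, Pik3r1, Foxo1, Foxo3, Gcgr, Creb1, Crtc2 and Creb3l3. They were chosen by name, with earlier results of these data known. For each, the array row annotated to that gene alone with the highest mean over the 8 arrays was kept. The members are 10 of 22180 genes with such a row. All 10 had means above 3.32 on the log2 scale, the filter for dim genes, and so belonged to the 15380 genes tested.

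The knockout group (p16-/-, 4 arrays) and the wild type group (p16+/+, 4 arrays) were cultured alike. p16 is the Cdkn2a product that restrains the kinases CDK4 and CDK6; the labels give neither the deleted part of the gene nor the age or sex of the mice, and do not say whether each replicate was its own animal; the p-values below therefore reflect only how these cultures varied. Cells attached in Williams E medium holding 100 nM insulin, 25 nM dexamethasone and 10% serum, and 16 h later were moved to DMEM of 1 mM glucose with 0.1% BSA, for which the labels list no hormone. RNA was taken at 24 h, after 8 h in that medium.

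Insulin binds its receptor, which phosphorylates the adaptor proteins IRS1 and IRS2; these recruit phosphatidylinositol 3-kinase, and the kinase AKT then keeps the FOXO transcription factors out of the nucleus. Glucagon, the hormone of fasting, acts through a receptor that raises cyclic AMP; protein kinase A then phosphorylates CREB, and the coactivator CRTC2 enters the nucleus. In liver both branches meet at genes of glucose production, which FOXO1 and CREB switch on and insulin switches off, and Irs2 is itself a textbook target of FOXO and CREB.

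The promoters of the adaptor genes are shown because Irs2 changed most of the 10 genes while Irs1 did not pass the test, and that of Creb3l3 because, like theirs, it holds the insulin response core. RefSeq (GRCm38.p6) gave 10 promoter windows for 8 of the 10 genes, each from 250 bases before to 50 after the start. Capitals mark the short CRE core TGACG, the E-box CACGTG and the insulin response core TGTTTTG, on either strand. The Irs2 window is chr8:11008880-11009179, that of Irs1 chr1:82291390-82291689 and the one of the 2 Creb3l3 windows that held motifs chr10:81092542-81092841, all 3 on the minus strand and written 5′ to 3′ along the gene.
Irs2: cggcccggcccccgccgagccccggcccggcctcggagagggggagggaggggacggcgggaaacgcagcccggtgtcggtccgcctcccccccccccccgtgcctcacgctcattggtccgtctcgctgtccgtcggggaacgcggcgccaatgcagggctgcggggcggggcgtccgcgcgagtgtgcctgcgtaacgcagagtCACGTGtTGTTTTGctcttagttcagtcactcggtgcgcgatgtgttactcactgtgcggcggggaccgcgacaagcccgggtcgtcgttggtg
Irs1: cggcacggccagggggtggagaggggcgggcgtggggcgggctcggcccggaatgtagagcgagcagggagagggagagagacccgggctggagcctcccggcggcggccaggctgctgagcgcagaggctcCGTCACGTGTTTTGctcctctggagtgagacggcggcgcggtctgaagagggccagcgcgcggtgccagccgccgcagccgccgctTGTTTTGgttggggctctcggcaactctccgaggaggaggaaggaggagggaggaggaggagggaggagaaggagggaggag
Creb3l3: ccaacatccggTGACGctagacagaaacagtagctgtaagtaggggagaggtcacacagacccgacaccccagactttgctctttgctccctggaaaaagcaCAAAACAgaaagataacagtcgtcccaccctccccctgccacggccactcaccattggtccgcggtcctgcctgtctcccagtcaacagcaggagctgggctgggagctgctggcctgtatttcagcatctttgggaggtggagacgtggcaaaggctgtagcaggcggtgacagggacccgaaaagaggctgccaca

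In the Irs2 window an E-box began at base -44 and an insulin response core at base -37, counted back from the start. In the Irs1 window the same pair overlapped, with the E-box at -115 and the core at -111, and a short CRE core on the other strand at -118 ran into the E-box; a further core lay at -32. The Creb3l3 window held a short CRE core at -239 and a core on the other strand at -148. The E-box and the core were searched after these sequences had been seen. The short CRE core also lay in the Foxo3 window, at -64, and in 1 of the 2 Pik3r1 windows, at -35, both on the other strand. In all it was in 4 of the 10 windows, the insulin response core in 3 and the E-box in 2, beside 20.8%, 6.28% and 7.15% of all 32851 promoter windows. The full CRE TGACGTCA (1.79% of all windows) and the FOXO core TGTTTAC (3.65%) were in 0 of the 10 windows, and none of the motifs was found in those of Foxo1, Gcgr and Creb1. A match to these letters is a description of the window.

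Arrays were alike in distribution, with medians of 3.76 to 3.88, and arrays of the same group correlated at 0.985 to 0.993, those of different groups at 0.973 to 0.983. Knockout replicate 4 had the highest lower quartile (2.68) and the lowest upper quartile (5.63) of the 8 arrays. Cdkn2a was at 4.28, 4.66, 4.27 and 4.91 in knockout arrays, against 4.16, 4.79, 4.48 and 4.68 in wild type arrays, so this row does not check the genotype, since where its probes lie is not known here. Hepatocyte markers were present in both groups, with albumin (Alb) at 13.57 ± 0.01 in knockout and 13.54 ± 0.03 in wild type cells (SD, n = 4 each). Of 16 hepatocyte markers 12 rose and none fell. Of 14 sinusoidal endothelial markers 12 fell, and so did 11 of 13 Kupffer cell markers and 5 of 12 stellate cell markers, while the stellate marker Reln rose. None of 4 cholangiocyte markers passed the test. Array means overlapped between the groups for the cholangiocyte list but not for the others: hepatocyte markers averaged 10.01 to 10.19 in knockout and 8.91 to 9.13 in wild type arrays, endothelial ones 4.55 to 4.73 in knockout and 5.56 to 5.75 in wild type arrays, Kupffer cell ones 3.93 to 4.09 in knockout and 4.79 to 4.93 in wild type arrays, and stellate ones 4.53 to 4.60 in knockout and 5.09 to 5.16 in wild type arrays. These log2 array values have no zero, so none of these markers can be called absent. Fewer cells of a type and less RNA per cell cannot be told apart here, and the part of these shifts in the results below was not tested.

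Of the 10 genes, 4 rose in knockout hepatocytes (Irs2, Foxo1, Gcgr and Creb3l3), Pik3r1 fell and 5 did not pass the test (limma, adjusted p under 0.05). Over all genes tested 13.8% passed, 7.02% upward and 6.76% downward. Since the 10 genes were chosen with earlier results of these data known, setting their count beside these shares is only a description. The 5 genes that passed were also the 5 whose groups did not overlap, which held for 20.2% of all genes tested. The median change of the 10 genes was 0.20 on the log2 scale, knockout minus wild type, beside -0.02 over all genes tested. The calls of Irs2, Foxo1 and Gcgr held under all 20 alternatives tried for each, while those of Creb3l3 and Pik3r1 did not, as given with their values.

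**Figure D1:**
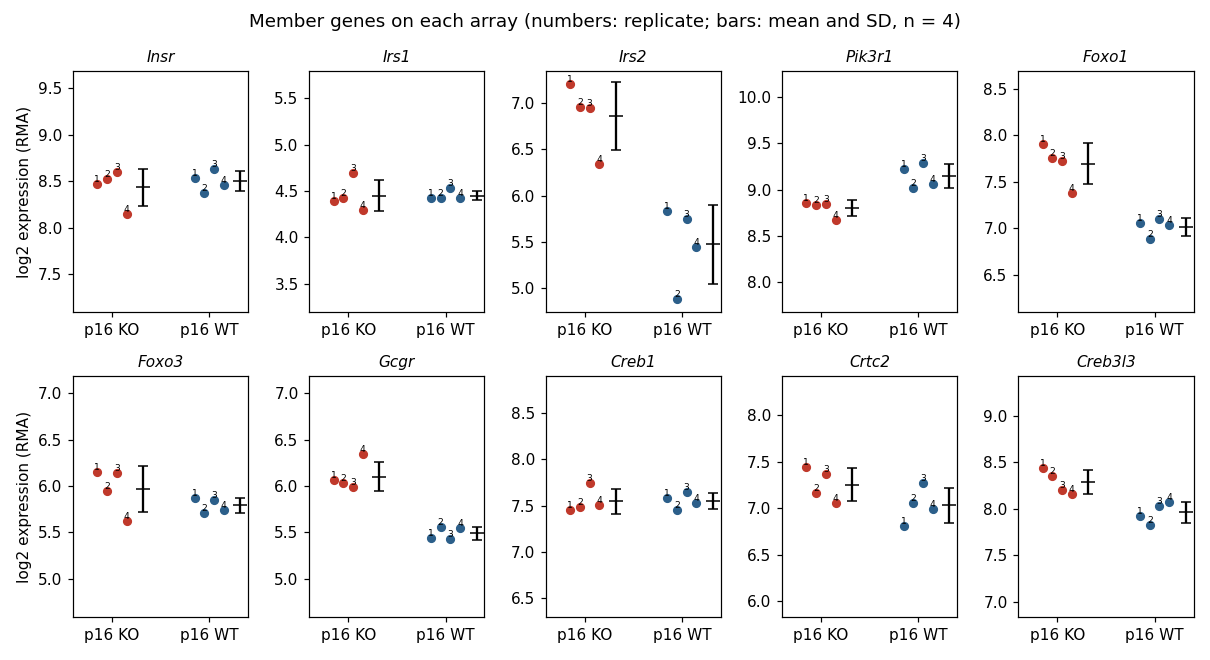
Log2 expression of the 10 genes on each array (vertical axis, the same span of 2.6 log2 units in every panel), with the 4 p16 knockout arrays on the left and the 4 wild type arrays on the right of each panel. Numbers are replicates and bars the mean and SD. Irs2, Foxo1, Gcgr and Creb3l3 lie higher and Pik3r1 lower in all 4 knockout arrays than in any wild type array.

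Irs2, the adaptor that couples the insulin receptor to phosphatidylinositol 3-kinase and the main adaptor during fasting, changed most of the 10 genes. Its log2 level was 7.20, 6.95, 6.94 and 6.34 in knockout replicates 1 to 4, against 5.83, 4.89, 5.75 and 5.45 in wild type replicates 1 to 4. Every knockout array lay above every wild type array, and each group was spread widely, with knockout replicate 4 and wild type replicate 2 at the low ends. Irs2 averaged 6.86 ± 0.36 in knockout and 5.48 ± 0.43 in wild type cells (SD, n = 4 each), a 2.60-fold rise (log2 change 1.38, SE 0.22, 95% interval 0.89 to 1.86, adjusted p = 0.00171). The size of this change exceeded that of 99.4% of all genes tested. A two-sided exact permutation test gave p = 0.0286, the smallest that 4 against 4 arrays allow, as it did for Foxo1, Gcgr, Creb3l3 and Pik3r1.

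Irs1, the other adaptor of the receptor in liver, stood at 4.39, 4.42, 4.69 and 4.30 in knockout arrays, against 4.42, 4.42, 4.53 and 4.42 in wild type arrays. The groups overlapped, and 4 arrays, 3 of them wild type, shared exactly the same deposited value of 4.42, which makes the small wild type spread a poor guide to error. Values shared by 3 or more arrays occurred in 5.51% of all rows. The change of Irs1 was 0.0012 (SE 0.10, 95% interval -0.22 to 0.22, adjusted p = 0.996). Levels of the 2 adaptors come from different probes and were not set against each other.

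Insr, the insulin receptor, was at 8.47, 8.52, 8.60 and 8.15 in knockout arrays, against 8.54, 8.37, 8.63 and 8.46 in wild type arrays. These ranges overlapped, and the change of -0.07 did not pass the test (SE 0.11, 95% interval -0.31 to 0.18, adjusted p = 0.770).

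Pik3r1 encodes the p85 alpha regulatory subunit, which docks on the phosphorylated adaptors and holds the catalytic subunit of phosphatidylinositol 3-kinase. It had log2 levels of 8.86, 8.83, 8.84 and 8.67 in knockout arrays, against 9.22, 9.02, 9.29 and 9.06 in wild type arrays. All knockout arrays lay below all wild type arrays. The means were 8.80 ± 0.08 in knockout and 9.15 ± 0.13 in wild type cells, 1.27-fold lower (log2 change -0.35, SE 0.09, 95% interval -0.56 to -0.14, adjusted p = 0.0317). Leaving out any 1 knockout array, or wild type replicate 1 or 3, ended the call, with changes of -0.37 to -0.30 and adjusted p-values of 0.0554 to 0.0926; with no filter on dim genes the adjusted p was 0.0613 and with median centring 0.0975.

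**Figure D2:**
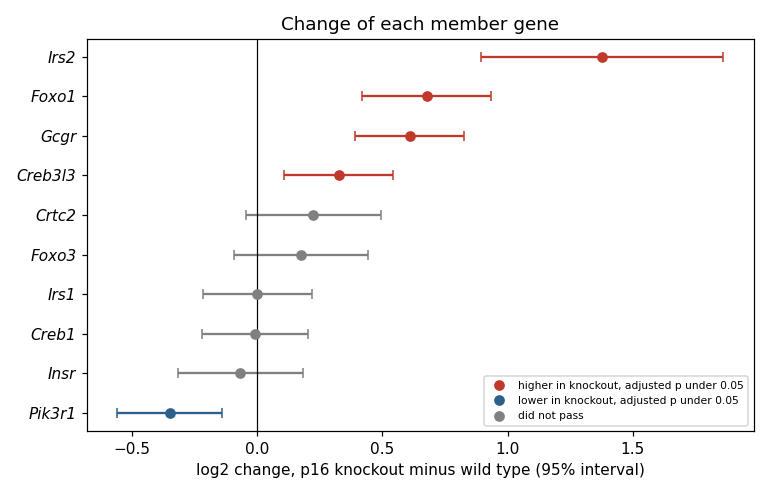
Log2 change of each gene (horizontal axis, p16 knockout minus wild type) with limma's 95% interval from 4 arrays a group. Intervals of Irs2, Foxo1, Gcgr and Creb3l3 lie above 0 and that of Pik3r1 below it; those of Crtc2, Foxo3, Irs1, Creb1 and Insr include 0.

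Foxo1, the FOXO factor that drives glucose production genes in liver when insulin is low, had log2 levels of 7.91, 7.76, 7.72 and 7.38 in knockout arrays, against 7.06, 6.88, 7.10 and 7.03 in wild type arrays. The groups were apart, and knockout replicate 4 lay nearest to the wild type arrays. Foxo1 averaged 7.69 ± 0.22 in knockout and 7.02 ± 0.10 in wild type cells, a 1.60-fold rise (log2 change 0.68, SE 0.12, 95% interval 0.42 to 0.93, adjusted p = 0.00289). Without knockout replicate 4 the change was 0.78 (adjusted p = 5.61e-04). A dimmer Foxo1 row, which the rule left out, was at 5.78, 5.76, 5.82 and 5.64 in knockout arrays, against 5.23, 5.58, 5.25 and 5.57 in wild type arrays. Those groups did not overlap either, and the difference of 0.34 had the same direction; with the mean of both rows the change was 0.51 (adjusted p = 0.00468).

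Foxo3, the related factor known for stress resistance and atrophy genes, was at 6.15, 5.95, 6.14 and 5.62 in knockout arrays, against 5.87, 5.71, 5.85 and 5.74 in wild type arrays. In 3 of 4 knockout arrays it lay above every wild type array, while knockout replicate 4 lay below all of them. Its change of 0.18 did not pass the test (SE 0.12, 95% interval -0.09 to 0.44, adjusted p = 0.407). Leaving out knockout replicate 4 gave 0.29, with an adjusted p of 0.0626. Whether Foxo1 and Foxo3 differ in their change was not tested.

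Gcgr, the G protein-coupled receptor for glucagon, had log2 levels of 6.06, 6.03, 5.99 and 6.34 in knockout arrays, against 5.44, 5.56, 5.43 and 5.55 in wild type arrays. The groups were well apart, and here knockout replicate 4 was the highest array. The means were 6.10 ± 0.16 in knockout and 5.49 ± 0.07 in wild type cells, a 1.53-fold rise (log2 change 0.61, SE 0.10, 95% interval 0.39 to 0.83, adjusted p = 0.00195). Without knockout replicate 4 it was 0.53 (adjusted p = 0.00225).

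Creb1, the transcription factor that protein kinase A phosphorylates, was at 7.45, 7.48, 7.74 and 7.51 in knockout arrays, against 7.58, 7.45, 7.65 and 7.53 in wild type arrays. The wild type arrays lay within the knockout range, and the change was -0.0064 (SE 0.10, 95% interval -0.22 to 0.20, adjusted p = 0.977). Crtc2, the coactivator that insulin signalling keeps in the cytoplasm, was at 7.44, 7.16, 7.37 and 7.06 in knockout arrays, against 6.81, 7.06, 7.27 and 6.99 in wild type arrays. It lay above every wild type array in 2 of 4 knockout arrays, and its change of 0.22 did not pass the test (SE 0.12, 95% interval -0.04 to 0.49, adjusted p = 0.279). Both proteins are controlled mainly by phosphorylation and location, which arrays do not measure.

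Creb3l3 encodes CREBH, a liver factor held in the endoplasmic reticulum membrane and released by cleavage during fasting and stress. Its log2 levels were 8.44, 8.35, 8.20 and 8.16 in knockout arrays, against 7.92, 7.82, 8.03 and 8.07 in wild type arrays. The groups did not overlap, but knockout replicate 4 and wild type replicate 4 nearly met. It averaged 8.29 ± 0.13 in knockout and 7.96 ± 0.11 in wild type cells, a 1.25-fold rise just past the threshold (log2 change 0.33, SE 0.10, 95% interval 0.11 to 0.54, adjusted p = 0.0495). The call ended under 12 of 20 alternatives, among them the omission of knockout replicate 1, 2 or 3 or of any 1 wild type array, which gave changes of 0.28 to 0.36 and adjusted p-values of 0.0544 to 0.139. With the replicate number as a block the adjusted p was 0.0853.

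Within the groups the 10 genes were described array by array, as deviations from the group mean. Of them 8 were lowest in knockout replicate 4 among knockout arrays. In wild type replicate 2, 8 were lowest among wild type arrays, for Irs1 as a tie. Gcgr went the other way, being highest in both of these arrays. Over the 8 arrays the deviations of Foxo1 and Foxo3 had a Pearson r of 0.90, those of Irs2 and Pik3r1 0.90, and those of Irs2 and Foxo1 0.88. Deviations of Gcgr had an r of -0.98 with those of Insr and of -0.93 with those of Foxo3, and were negative against all 9 other genes. These are descriptions over 8 arrays that share their normalization, and knockout replicate 4 supplies many of the larger deviations. That array also had the narrowest spread between quartiles, and the part of this in the pattern was not tested. It had the lowest knockout mean for the hepatocyte, endothelial and stellate marker lists too, but not for the Kupffer cell and cholangiocyte lists. The share of all genes lowest in this array or in wild type replicate 2 was not counted, so the pattern cannot be called particular to the 10 genes.

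**Figure D3:**
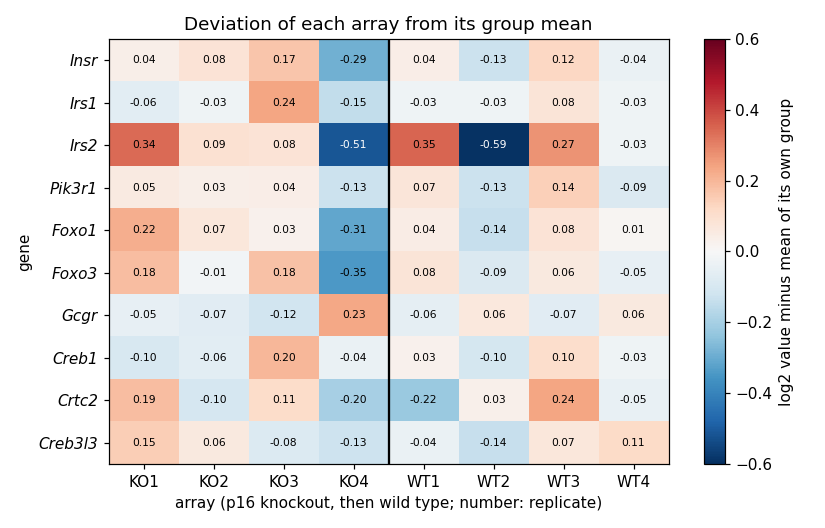
Log2 value of each gene on each array minus the mean of its own group of 4 (colour and number), p16 knockout arrays left of the line and wild type arrays right of it. Knockout replicate 4 and wild type replicate 2 are below their group mean for most genes (Irs2 by -0.51 and -0.59) and above it for Gcgr (0.23 and 0.06).

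Genes whose levels followed those of the 4 members of smallest p most closely over the 8 arrays were read from all genes tested. They were Cpt1a, the gate of mitochondrial fat oxidation (r = 0.99), and Mttp, which loads lipoproteins with fat (r = 0.99), for Irs2; B4galt1 and Hadh (r = 0.99 for both) for Foxo1; Acta1 and Wfdc21 (r = 0.99 for both) for Gcgr; and Abhd2 and Man1a (r = 0.99 for both) for Pik3r1. Since r was taken over both groups, choosing by it fixed the direction of their changes, which ran from -0.68 for Abhd2 to 0.88 for Wfdc21. The Hadh call ended without knockout replicate 1 (adjusted p = 0.0502) and the Man1a call without wild type replicate 1 (0.0543).

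The wider pathways were read from 10 lists with 199 genes, of which 174 were tested. Of these 30 rose, 13 fell and 131 did not pass, so 24.7% were called beside 13.8% of all genes, and their median change was 0.00. This pool holds the 10 members and was chosen with earlier results of these data known. Its share was uneven: 41.7% to 60% of the genes were called on the target lists, and 4.76% to 27.8% on the other lists.

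Beyond the receptor and its adaptors, 11 further genes of that list were tested, of which 1 rose and 1 fell. Ceacam1, which promotes insulin clearance by the liver, rose to 8.80 ± 0.16 in knockout cells, against 7.91 ± 0.14 in wild type cells (log2 change 0.90, SE 0.11, adjusted p = 3.09e-04). Ide, an insulin-degrading protease, fell by 0.44 (SE 0.09, adjusted p = 0.00920). Igf1r, the related receptor for insulin-like growth factor, had a change of -0.35 (SE 0.11, adjusted p = 0.0539) without overlap between the groups. Its levels were dim, at means of 3.47 in knockout and 3.83 in wild type cells. It passed without knockout replicate 4 (-0.42, adjusted p = 0.0230). It also passed with quantile normalization, cyclic loess, array weights or the replicate block (adjusted p-values 0.0202 to 0.0410).

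Among 19 other genes of phosphatidylinositol 3-kinase, AKT and mTOR none rose and Rptor fell. Rptor, the subunit that defines mTOR complex 1, was at 7.75, 7.76, 7.75 and 7.62 in knockout arrays, against 8.06, 7.86, 8.26 and 8.08 in wild type arrays (log2 change -0.34, SE 0.10, adjusted p = 0.0429). Its call ended without any 1 knockout array or wild type replicate 1, 3 or 4 (changes -0.36 to -0.28, adjusted p-values 0.0722 to 0.114). It also ended with no filter, the 20th percentile filter, median centring or the replicate block (adjusted p-values 0.0568 to 0.111). Akt2, the main AKT of liver, had a change of 0.19 (SE 0.08, adjusted p = 0.151) and Rictor, the subunit of mTOR complex 2, one of 0.30 (SE 0.12, adjusted p = 0.128), both without overlap between the groups. For Rictor, knockout replicate 4 at 7.58 and wild type replicates 3 and 4 at 7.57 nearly met.

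Of 18 inhibitors of insulin signalling 3 rose and 2 fell. Mapk8, the stress kinase JNK1, rose by 0.60 (SE 0.10, adjusted p = 0.00201) and Ptprf, the receptor phosphatase LAR, by 0.55 (SE 0.10, adjusted p = 0.00470). Grb10, which binds the insulin receptor and blocks it, fell to 7.80 ± 0.16 in knockout cells, against 8.40 ± 0.07 in wild type cells (log2 change -0.60, SE 0.10, adjusted p = 0.00208). Named after their values were seen, Trib3, a pseudokinase that binds AKT, fell by 0.42 (adjusted p = 0.0102), and Grb14, the liver relative of Grb10, rose by 0.56 (adjusted p = 0.0488) with overlapping groups. Leaving out knockout replicate 1 or 3 or wild type replicate 1, 2 or 4 ended the Grb14 call (changes 0.46 to 0.57, adjusted p-values 0.0969 to 0.133).

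On the glucagon side 15 other genes of receptors, G proteins and adenylyl cyclases were tested. Only the cyclase gene Adcy5 passed, at 4.00, 3.97, 3.76 and 4.15 in knockout arrays, against 3.43, 3.47, 3.18 and 3.81 in wild type arrays (log2 change 0.50, SE 0.14, adjusted p = 0.0315). The groups overlapped, the levels were dim, and the call ended without knockout replicate 1, 2 or 4 or wild type replicate 1, 2 or 3 (changes 0.40 to 0.50, adjusted p-values 0.0714 to 0.0828). Without wild type replicate 4 the cyclase genes Adcy1 (0.45, adjusted p = 0.0443) and Adcy2 (0.48, adjusted p = 0.0487) passed too, so that 4 genes of the list rose with Gcgr counted, against 2 over all arrays; Adcy1 also passed with array weights and with the replicate block. Of 21 genes of protein kinase A, phosphodiesterases and EPAC 1 fell and none rose, or 4.76%, below the 13.8% of all genes. It was Pde4b, which breaks down cyclic AMP and whose groups overlapped (log2 change -0.38, SE 0.11, adjusted p = 0.0437), and the omission of any 1 array but knockout replicate 2 ended its call (changes -0.42 to -0.32, adjusted p-values 0.0562 to 0.124). The call also ended with no filter, the 20th percentile filter, median centring, either intensity trend or array weights (adjusted p-values 0.0510 to 0.0793). Prkaca, the main catalytic subunit of protein kinase A, had a change of -0.26 (SE 0.13, adjusted p = 0.216).

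Among 19 other genes around CREB, Creb3l2 and Creb3 rose and Ppp3ca fell. Creb3l2, a membrane-bound relative of CREBH that serves the secretory pathway, was at 8.63, 8.90, 8.83 and 8.34 in knockout arrays, against 7.31, 7.55, 7.64 and 7.87 in wild type arrays (2.11-fold, log2 change 1.08, SE 0.15, adjusted p = 6.32e-04). Its groups were apart and its change was more than that of Creb3l3 in size, although the difference between them was not tested. Creb3, another membrane-bound member of the family, rose by 0.35 (SE 0.09, adjusted p = 0.0216). Ppp3ca, a catalytic subunit of calcineurin, the phosphatase that releases CRTC2, fell by 0.36 (SE 0.10, adjusted p = 0.0409). Leaving out knockout replicate 1, 2 or 3 or wild type replicate 1, 3 or 4 ended both of these calls, with adjusted p-values of 0.0523 to 0.0690 for Creb3 and 0.0633 to 0.117 for Ppp3ca. Median centring ended both too (0.0547 for Creb3). The Ppp3ca call also ended with no filter, the 20th percentile filter or the replicate block (adjusted p-values up to 0.078 with median centring counted). With Creb3l3 counted, 3 genes of the list rose. The count was 5 without knockout replicate 4 and with array weights. It was 1 with median centring, at an adjusted p under 0.01, and without knockout replicate 1, 2 or 3 or wild type replicate 1, 3 or 4.

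Of 15 other FOXO family genes and regulators 1 rose and 1 fell, both of them kinases related to AKT. Sgk2 rose by 0.44 (SE 0.08, adjusted p = 0.00523) and Sgk3 fell by 0.39 (SE 0.10, adjusted p = 0.0317). The Sgk3 call ended without knockout replicate 1, 2 or 4 or wild type replicate 1 or 3 (adjusted p-values 0.0575 to 0.0950). Cdk2, a cell cycle kinase that phosphorylates FOXO1, had a change of -0.41 (SE 0.14, adjusted p = 0.0709). With quantile normalization, the 60th percentile filter or either intensity trend, Cdk2 passed (adjusted p-values 0.0372 to 0.0450) and 4 genes of the list fell. The number that fell was 0 with no filter on dim genes, with median centring and at an adjusted p under 0.01. It was also 0 without knockout replicate 1, 2 or 4 or wild type replicate 1 or 3.

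**Figure D4:**
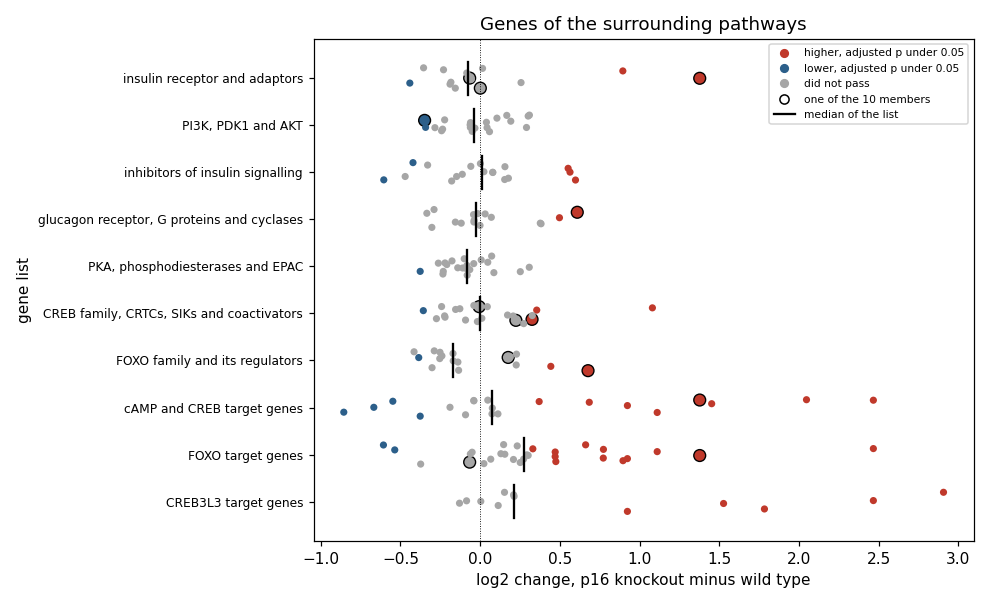
Log2 change (horizontal axis, p16 knockout minus wild type) of each tested gene of the 10 lists, 1 row per list, with red for higher and blue for lower at an adjusted p under 0.05, grey for genes that did not pass, ringed points for the 10 genes of the report and a bar at the median. Red points in the bottom 3 rows, the target lists, reach 2.91 for Hamp; genes can stand on several lists.

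Of 29 tested FOXO targets 12 rose and 2 fell (48.3% called, beside 13.8% of all genes), with a median change of 0.27. Beside Irs2 the rises of smallest p were those of Pck1, which commits oxaloacetate to glucose production, G6pc, the catalytic subunit of glucose 6-phosphatase, and the coactivator Ppargc1a. Pck1 was at 8.60, 7.97, 7.99 and 7.86 in knockout arrays, against 5.69, 5.28, 5.72 and 5.85 in wild type arrays (5.53-fold, log2 change 2.47, SE 0.17, adjusted p = 6.12e-06). G6pc was at 7.56, 7.83, 7.61 and 7.44 in knockout arrays, against 6.84, 6.58, 6.71 and 6.61 in wild type arrays (1.90-fold, log2 change 0.92, SE 0.11, adjusted p = 1.90e-04). Ppargc1a, which couples fasting signals to glucose production, rose to 6.52 ± 0.28 in knockout cells, against 5.41 ± 0.14 in wild type cells (adjusted p = 3.42e-04). None of these 3 genes had overlapping groups. Named after their values were seen, Igfbp1, a secreted protein that insulin represses through FOXO1, rose to 10.37 ± 0.09 in knockout cells, against 9.60 ± 0.19 in wild type cells (log2 change 0.77, adjusted p = 7.73e-04), Ccng2 rose by 0.77 (adjusted p = 0.00120) and the autophagy gene Gabarapl1 by 0.66 (adjusted p = 0.00607). The other risers were Mttp and, also named after their values were seen, Sesn1, Pdk4, Bnip3 and Apoc3. Calls of Pdk4, Bnip3 and Apoc3 ended without knockout replicate 1 or 3 (Pdk4, Bnip3), knockout replicate 2 or 3 (Apoc3), wild type replicate 1 or 2 (all 3) or wild type replicate 3 (Pdk4), with adjusted p-values of 0.0513 to 0.0987. The 2 that fell were Txnip, which restrains glucose uptake, and Cited2, a transcriptional coregulator, by 0.54 (adjusted p = 0.00713). Txnip and Cited2 were also named after their values were seen.

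Of 20 tested targets of cyclic AMP and CREB 8 rose and 4 fell, with a median change of 0.08. So 12 of 20 moved (60%, beside 13.8% of all genes), in both directions. Rgs2, which shortens G protein signals, was at 9.66, 9.61, 9.49 and 9.47 in knockout arrays, against 7.42, 7.41, 7.52 and 7.71 in wild type arrays (4.13-fold, log2 change 2.05, SE 0.10, adjusted p = 7.77e-07). The clock gene Per1, inducible by cyclic AMP and by glucocorticoids, was at 9.13, 9.32, 9.15 and 8.84 in knockout arrays, against 7.46, 7.59, 7.62 and 7.96 in wild type arrays (log2 change 1.45, SE 0.13, adjusted p = 3.32e-05). Both genes were far apart between the groups. With the mean of its rows in place of the brightest one, the Rgs2 change was 1.34 (adjusted p = 1.48e-05). Named after their values were seen, the nuclear receptor Nr4a2 fell to 5.30 ± 0.13 in knockout cells, against 5.97 ± 0.10 in wild type cells (log2 change -0.67, adjusted p = 9.55e-04), Junb fell by 0.55 (adjusted p = 0.00258) and Egr1 by 0.86 (adjusted p = 0.0421), while Fos rose by 0.37 (adjusted p = 0.0343) and Tat, a tyrosine catabolic enzyme that also stands among the hepatocyte markers, by 0.68 (adjusted p = 0.0225). The other gene that fell was Pde4b, given above with the phosphodiesterases, whose call ended under 13 of 19 alternatives. Groups overlapped for Egr1, Tat and Pde4b. The number of genes of this list that fell was 2 to 4 under the 22 alternatives. Calls of Egr1 (without knockout replicate 1, 3 or 4 or wild type replicate 2 or 3), Fos (knockout replicate 3 or 4 or any 1 wild type array) and Tat (knockout replicate 1 or 2 or wild type replicate 2 or 4) ended with adjusted p-values of 0.0600 to 0.107. The Egr1 call also ended with no filter, the 20th percentile filter, cyclic loess or array weights (adjusted p-values 0.0502 to 0.0705).

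Of 12 CREB3L3 targets 5 rose and none fell (41.7% called, beside 13.8% of all genes), with a median change of 0.21. Crp, the acute phase protein C-reactive protein, was at 10.19, 10.21, 10.12 and 10.14 in knockout arrays, against 8.08, 8.37, 8.46 and 8.62 in wild type arrays (3.44-fold, log2 change 1.78, SE 0.11, adjusted p = 5.01e-06). Hamp, the iron hormone hepcidin, averaged 11.29 ± 0.22 in knockout and 8.38 ± 0.64 in wild type cells (log2 change 2.91, SE 0.26, adjusted p = 3.24e-05). The other risers were Pck1, G6pc and the lipid droplet gene Cidec, which was named after its values were seen. The remaining 7 genes of the list did not pass, with changes of -0.13 to 0.21. The FOXO and cyclic AMP lists share 4 tested genes (G6pc, Irs2, Pck1 and Ppargc1a), and the CREB3L3 list shares G6pc and Pck1 with each, so their counts are not separate. On the same arrays the list mean of hepatocyte markers was higher by 1.04 and those of endothelial, Kupffer cell and stellate markers lower by 1.02, 0.88 and 0.55; the part of these shifts in the target genes was not tested.

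**Figure D5:**
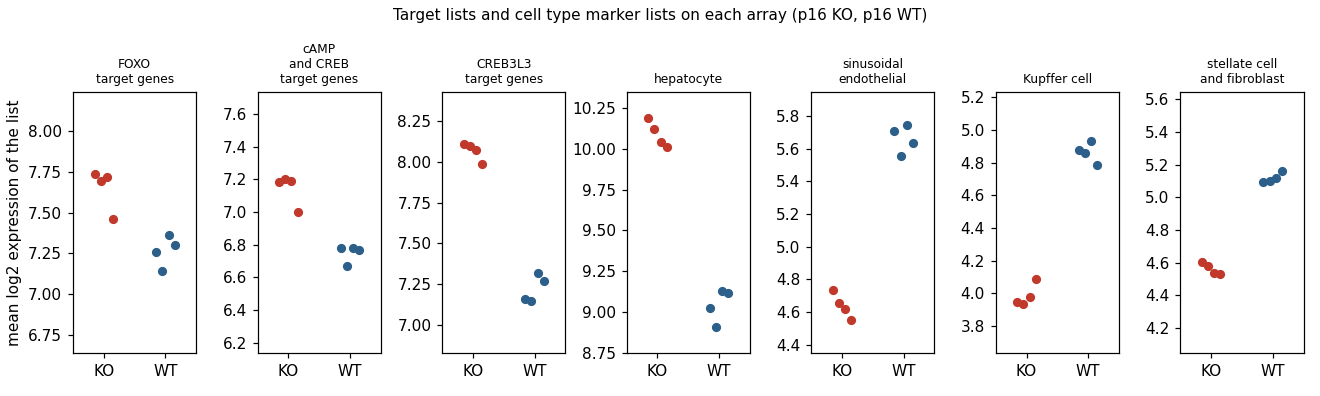
Mean log2 expression of the tested genes of 3 target lists and 4 marker lists on each array (vertical axis, the same span of 1.6 log2 units in every panel), with the 4 p16 knockout arrays left of the 4 wild type arrays. Knockout arrays are higher for the target and hepatocyte lists and lower for the endothelial, Kupffer cell and stellate lists, in all 7 panels without overlap, and knockout replicate 4 is the lowest knockout array for the 3 target lists.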

How the data were processed

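Total RNA of 8 cultures was hybridised to Affymetrix whole-transcript arrays, 1 per sample. The deposited table holds log2 values of 41345 rows, made by the authors with RMA through the oligo package per the submitters' processing notes; no version or genome build is given there. RMA sets the probes of all arrays to 1 distribution before summarising them, so a change shared by all genes is removed and dim genes are compressed. Arrays have no read depth; 4 per group limit the precision.

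Rows were named from the platform annotation: 23521 had 1 symbol, 1814 several and 16010 none. Genes with a mean over all arrays above the 40th percentile of row means were tested. Knockout was compared with wild type with the moderated linear model of limma 3.58.1 under R 4.3.3 (6 residual and 5.05 prior degrees of freedom), with two-sided p-values adjusted by Benjamini-Hochberg over all 15380 genes and a threshold of 0.05. Errors of changes are moderated standard errors. Exact permutation tests used all 70 arrangements (Python 3.11.15, scipy 1.17.1). The fit was tested on simulated data. The members and gene lists were chosen with earlier results of these data known.

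Other genes named are the 3 of smallest p of each pathway list, the 2 of highest r with each of the 4 members of smallest p, Cdkn2a, and the 2 brightest of each marker list, of which some are given only through counts; further names are marked as chosen after their values were seen. Alternatives were other filters, row choices, normalizations, variance models, array weights, thresholds, the replicate number as a block and the omission of each array. Protein sequences were not used here.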

Additional observations from a re-analysis of the deposited data

Results flagged for a closer look

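Among the 10 genes and the others named by rule, 49 genes were examined for an array standing apart within its group of 4 by Dixon's 95% critical value for the gap to the nearest array over the group's range. Of 98 groups 12 met this, where chance gives about 1 in 20 for independent groups. These groups share the same 8 arrays and many of the genes were named for a small p. The count was therefore not tested against that rate. Knockout replicate 4 accounted for 5 of them, with Pik3r1 at 8.67 beside 8.83 to 8.86 on the other knockout arrays, Ceacam1 at 8.56 beside 8.86 to 8.90, Rptor at 7.62 beside 7.75 to 7.76, Ptprf at 8.78 beside 9.05, and Cdk2 at 6.07 beside 6.58 to 6.63. Wild type replicate 2 accounted for 3, with Rictor at 7.14 beside 7.51 to 7.57 on the other wild type arrays, Cdk2 at 7.12 beside 6.79 to 6.83 and Lyve1 at 7.90 beside 8.09 to 8.12. In knockout replicate 3 Akt2 was at 7.83 beside 7.93 to 7.94 and Sgk2 at 5.69 beside 5.81 to 5.83, and in knockout replicate 1 Ttr was at 12.95 beside 12.98. In wild type replicate 3 Irs1 was at 4.53 beside a shared value of 4.42 on the other wild type arrays.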

How the results depend on the processing

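The count of higher members was 3 or 4 under all 22 alternatives, and the rises of Irs2 (changes 1.18 to 1.55), Foxo1 (0.51 to 0.78) and Gcgr (0.53 to 0.65) passed under all 20 tried for each. The count of lower members, 1 (Pik3r1), was 0 with no filter on dim genes, with median centring and at an adjusted p under 0.01, and 0 to 1 when 1 array was left out. Over the pathway lists 21 to 35 genes rose, against 30 as reported; the 13 that fell became 7 with no filter, 8 with median centring and 6 at an adjusted p under 0.01, and 7 to 11 when 1 array was left out. A stricter threshold lowers the calls by construction; the cause was not tested for the other settings. Over all genes the 2119 calls became 1071 at an adjusted p under 0.01 and 1448 to 2165 when 1 array was left out, the highest without knockout replicate 4.

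Signs that turned belong to genes that did not pass. When 1 array was left out, Insr ranged from -0.12 to 0.0300, Irs1 from -0.0779 to 0.0509, Creb1 from -0.0730 to 0.0281 and Cdkn2a from -0.12 to 0.0932; the sign turned for Insr without knockout replicate 4 and for Irs1 without knockout replicate 3 or wild type replicate 1, 2 or 4. Irs1 was at -0.15 with the mean of its rows, Creb1 at 0.0157 with cyclic loess and 0.0040 with median centring, Prkaca at 0.0134 with the mean of its rows and Cdkn2a at -0.0181 with array weights. Of 51 other named genes that passed, 35 did so under every alternative and none turned. Calls of Grb14, Adcy5, Sgk3, Fos, Pdk4, Apoc3 and Man1a ended under some settings other than leaving out 1 array as well.

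The labels do not say whether the replicate numbers pair the samples, and the main fit did not pair them. Same-numbered arrays correlated at 0.02 to 0.26 in their deviations from the group means, and other pairs at -0.29 to 0.15. Of 8 arrays, 4 correlated best with their own number. Whether the numbers pair the samples is not settled by these values. With the number as a block 2215 genes passed, 3 members higher and 1 lower, and over the lists 30 higher and 12 lower.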

Other observations

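Rows of the members outside the rule gave the following values. A row annotated to both Irs2 and 9530052E02Rik was at 3.76, 3.93, 3.73 and 3.85 in knockout arrays, against 3.75, 3.47, 3.78 and 4.16 in wild type arrays, with overlapping groups and a difference of 0.03. A dimmer Irs1 row, under the 3.32 of the filter, averaged 2.65 ± 0.20 in knockout and 2.95 ± 0.28 in wild type cells (SD, n = 4 each), with overlapping groups.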
